A study of Mus musculus with 8 samples.

Results

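Intergenic ATAC-seq peaks far from any transcription start site (TSS) were examined in cerebellar granule neuron progenitors (GNPs) of 3 Chd7 genotypes. A peak was taken as distal when its summit lay on an autosome, outside every protein-coding and long non-coding gene body of GENCODE M21, and more than 100 kb from any TSS of these genes. The 3 peak lists held 47186 distal peaks among 424395 autosomal peaks and 434365 peaks in all. WT had 17823 of them, het 10202 and mutant 19161.

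ATAC-seq marks DNA that the Tn5 transposase can reach, and therefore nucleosome-poor sites such as promoters and enhancers. Long stretches without genes, called gene deserts, often flank genes that act in development or in the nervous system, and can carry enhancers that act over a long distance. GNPs are the proliferating precursors of cerebellar granule neurons, are specified by the basic helix-loop-helix (bHLH) factor Atoh1, and use nuclear factor I (NFI) proteins and Zic factors as they mature.

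The cells were taken from cerebella at postnatal day 7, and the labels give the strain as C56Bl6/J and the genotypes as Chd7 wild type (WT), Chd7 het and Chd7 mutant. Chd7 encodes an ATP-dependent chromatin remodeller, and in the study's other experiments these names stand for Chd7 f/f mice, het Atoh1-Cre::Chd7 f/+ mice and mutants that are Atoh1-Cre::Chd7 f/f, in which the Atoh1-driven Cre leaves residual Chd7 in the posterior lobe of the cerebellum. The lists were called by the authors on pooled libraries, 3 for WT, 3 for mutant and 2 for het, and the methods describe the WT and mutant replicates as technical. No replicate error exists for any value below, and no difference between genotypes was tested.

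After removal of duplicates the WT list rested on 50394313 tags, the mutant list on 51030229 and the het list on 30923002. WT and het tags were 107 bp long but mutant tags 76 bp, and the het list came from another aligner and other peak caller settings, so genotype and processing cannot be told apart in any comparison. Intervals of shares are Wilson 95% confidence intervals, which cover counting error over peaks only. Intervals of a pileup ratio are exact conditional 95% intervals that treat both pileups as Poisson counts. Intervals of a median are taken from the ordered values. A peak within 1 kb of a TSS was present at 9 of 10 GNP marker genes in WT and het and at 10 in mutant, Zic2 being the exception. Markers of other cells also had such peaks in WT, at 3 of 4 Purkinje cell genes, 4 of 4 interneuron genes, 4 of 4 astroglial genes, 3 of 4 oligodendrocyte genes, 3 of 3 endothelial genes and 1 of 3 microglial genes. The part of these other cells in the distal peaks was not tested. No share over all genes is given beside these counts. The median percentile of −log10 q in the WT list was 83.4 at GNP and 89.1 at Purkinje cell genes with a peak. It lay between 43.4 and 74.7 for the other cell types. The mutant peak at Zic2 was at percentile 6.15 of its list.

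The sequences of 10 distal peaks are given first, since the results below refer to them. Each is 150 bases of the GRCm38 plus strand, centred on the summit, and read 5′ to 3′. Capitals mark matches, on either strand, to an E-box bound by Atoh1 and Neurod factors (CAGATGG or CAGCTGG), to an NFI motif (TTGGCA), to a Zic motif (CCTGCTG) or to the CTCF consensus. The first 4 are the strongest WT distal peaks with single-copy summits that were present in all lists and whose sequence is printed here. The next 4 are the strongest peaks found in the WT list alone and in the mutant list alone. The last 2 are the shared WT peaks with the lowest and the highest ratio of mutant to WT pileup, of which the second is the shoulder of a WT peak that was called in 2 pieces.
Cdh8, chr8:100516040-100516189: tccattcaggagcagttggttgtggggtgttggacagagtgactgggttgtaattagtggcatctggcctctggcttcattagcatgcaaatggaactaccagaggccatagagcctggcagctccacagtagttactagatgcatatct
Cntn6, chr6:104313148-104313297: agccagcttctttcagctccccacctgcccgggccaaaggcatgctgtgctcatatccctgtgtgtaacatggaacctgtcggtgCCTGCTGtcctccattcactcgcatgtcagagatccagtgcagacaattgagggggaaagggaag
Gm597, chr1:28214392-28214541: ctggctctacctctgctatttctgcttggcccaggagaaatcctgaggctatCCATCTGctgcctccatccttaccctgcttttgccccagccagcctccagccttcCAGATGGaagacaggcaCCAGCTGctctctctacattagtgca
Zic4, chr9:91609876-91610025: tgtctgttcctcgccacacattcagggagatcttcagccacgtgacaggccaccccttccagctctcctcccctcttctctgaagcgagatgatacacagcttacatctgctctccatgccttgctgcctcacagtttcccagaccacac
WT alone, chr14:90323680-90323829: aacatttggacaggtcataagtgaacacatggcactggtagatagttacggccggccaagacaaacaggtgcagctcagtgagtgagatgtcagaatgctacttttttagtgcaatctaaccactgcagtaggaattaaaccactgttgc
WT alone, chr19:49533666-49533815: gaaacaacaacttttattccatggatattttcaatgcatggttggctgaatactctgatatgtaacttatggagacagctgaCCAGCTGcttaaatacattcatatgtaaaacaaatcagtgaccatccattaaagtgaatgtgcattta
mutant alone, chr8:33177715-33177864: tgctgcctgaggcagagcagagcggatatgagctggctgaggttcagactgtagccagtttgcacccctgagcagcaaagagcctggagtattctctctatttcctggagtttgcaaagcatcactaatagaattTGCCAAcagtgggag
mutant alone, chr15:49555939-49556088: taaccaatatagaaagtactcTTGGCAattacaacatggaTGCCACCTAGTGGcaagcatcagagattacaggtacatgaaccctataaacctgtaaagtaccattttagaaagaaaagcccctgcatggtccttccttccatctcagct
lowest mutant to WT ratio, chr6:19945818-19945967: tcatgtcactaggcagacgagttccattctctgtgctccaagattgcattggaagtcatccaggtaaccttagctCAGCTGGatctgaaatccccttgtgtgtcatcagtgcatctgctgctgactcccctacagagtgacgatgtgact
highest mutant to WT ratio, chr15:31768585-31768734: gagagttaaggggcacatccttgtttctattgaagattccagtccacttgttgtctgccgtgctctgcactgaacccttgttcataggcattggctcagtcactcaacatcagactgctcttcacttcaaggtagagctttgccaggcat
The Gm597 sequence held 3 E-box matches and the Cntn6 sequence 1 Zic match. The WT-alone sequence on chr19 and the sequence with the lowest ratio each held 1 E-box match. The mutant-alone sequence on chr15 held 1 CTCF match and 1 NFI motif, and the mutant-alone sequence on chr8 held 1 NFI motif near its 3′ end. The 4 remaining sequences held none of these 4 motifs.

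Distal peaks were sparse for the amount of genome they could lie in. The space over 100 kb from any TSS covered 424 Mb, 17.7% of the sequenced autosomal bases, but held 11.9% of WT peaks (11.7 to 12.1), 11.2% of mutant peaks (11.098 to 11.4) and 9.77% of het peaks (9.59 to 9.95). Density in WT was 42.0 peaks per Mb, against 52.9 in intergenic space up to 100 kb from a TSS, 61.9 in gene bodies and 207 within 1 kb of a TSS. The mutant list had 45.2 distal peaks per Mb and the het list 24.1. From nearer intergenic space to distal space, density thus went from 61.0 to 45.2 in mutant and from 36.6 to 24.1 in het.

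**Figure D1:**
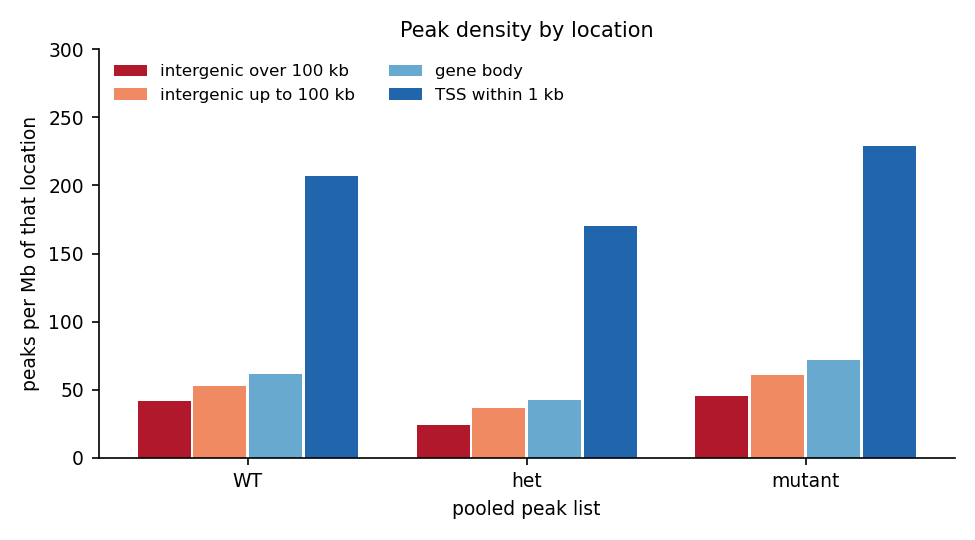
Peaks per Mb in the WT, het and mutant lists (bars, 1 pooled list each) for 4 locations, with the y axis in peaks per Mb of sequenced bases. Distal intergenic peaks, at 42.0, 24.1 and 45.2 per Mb, were the sparsest location in each list.

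Distal peaks were also weaker and narrower. In WT the median pileup, the number of extended tags over the summit, was 12 (quartiles 10 and 19), against 15 (11 and 24) in nearer intergenic peaks and 32 (18 and 57) at TSSs. The median −log10 q was 4.53, against 6.24 and 16.2, and the median width 171 bp, against 200 bp and 496 bp. Strong peaks, here those at −log10 q of 10 or more, made up 24.4% of WT distal peaks (4354) and 24.8% of mutant ones (4743), against 34.0% and 34.5% of nearer intergenic peaks.

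Just outside the distance limit, 1477 WT intergenic peaks at 90 to 100 kb had a median −log10 q of 5.37, and just inside it 1269 peaks at 100 to 110 kb had 5.12. Their shares without a mutant peak were 33.0% and 33.6%, and for mutant peaks lacking a WT one 37.9% and 40.1%. The median distance of WT distal peaks from a TSS was 207 kb and the largest was 1764 kb, and 1961 lay over 500 kb away. The median gap from a WT distal summit to the next one was 6.84 kb, and 41.1% (7317) had another within 5 kb.

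The definition depended on the annotation. Genes of other types lay under 1.17% (208) of WT distal summits, but only 7311 of the 17823 remained when distance to those genes was also counted. RefSeq placed 6.13% (1093) of WT distal summits in a protein-coding or non-coding RNA gene, and 146 in a protein-coding one.

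In 9 of the 10 strongest distal regions the interval of the mutant to WT ratio included 1. Genes are given by the nearest protein-coding TSS. By WT −log10 q, the second region was chr8:100515938-100516510, at 1100 kb from the TSS of Cdh8, which encodes a type II cadherin cell adhesion molecule. Its pileup was 112 in WT, 100 in mutant and 156 in het, and its −log10 q 98.5, 85.7 and 127. The fifth, chr6:104313042-104313363, lay 180 kb from Cntn6, a contactin of the immunoglobulin superfamily, with pileups of 93 in WT, 86 in mutant and 140 in het. The seventh, chr9:91609761-91610256, lay 228 kb from Zic4, a zinc finger factor of the granule lineage, with 86, 79 and 107. In these 3 regions the mutant to WT ratio scaled to tags was 0.882, 0.913 and 0.907. Het pileups are not comparable in height, because het tags were extended to 200 bp against 90 bp in WT.

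The sixth region, chr1:28214119-28214592, had pileups of 96 in WT and 94 in mutant and lay 566 kb from Gm597. The eighth, chr16:86694473-86694922, had 92 and 94 and lay 660 kb from N6amt1, which encodes a methyltransferase. The ninth, chr4:27418562-27418983, had 83 and 75 and lay in the desert between Manea and Epha7, 1072 kb from the TSS of Manea. The tenth, chr15:17803018-17803533, stood apart with 109 in WT and 78 in mutant, a mutant to WT ratio of 0.707 (95% interval 0.522 to 0.954 by counting), and lay 1016 kb from Cdh10, another type II cadherin. Over the 10 regions the ratio went from 0.707 to 1.03, but they were picked by their WT −log10 q, which favours ratios below 1.

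The 3 other regions of this set differed in sequence or position. The strongest, chr12:3109827-3110144, had the highest distal pileup in both lists, 167 in WT and 160 in mutant, but the 32 bases at its summit occurred 44 times in the genome and 98.0% of its summit window was soft-masked as repeat. Another, chr8:20122062-20122956, had 115 and 113, and its summit bases occurred 4 times. Copies were counted for 32 bases and tags were longer, so whether tags at these regions could be placed uniquely was not tested. The last lay on chromosome 18, at 263 kb from Mc2r, with 77 and 80.

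Distal summits stood out from the DNA around them by base composition. In the 200 bases at the WT summits mean GC was 48.0%, against 38.6% in all distal space, and mean soft-masked share 21.8%, against 41.2%. Nearer intergenic summits had 51.0% GC and 12.9% soft-masked bases, and TSS peaks 61.3% and 6.75%. CpG dinucleotides were at 0.946 per 100 bases in WT distal windows, against 1.60 in nearer intergenic windows and 6.26 at TSSs. Distal peaks had the lowest GC and the highest repeat share of the 4 locations.

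E-boxes of the Atoh1 type were found in 24.3% of WT distal windows (23.7 to 24.9), against 5.66% (5.33 to 6.01) of windows moved by 2 kb from the same summits. NFI motifs were in 24.9% against 9.49%, the Zic motif in 10.2% against 2.71%, a Meis motif (TGACAG) in 22.6% against 11.9%, and an RFX motif (GTTGCCA) in 4.58% against 1.68%. Meis proteins are homeodomain cofactors and RFX proteins are winged-helix factors. The NFI and RFX letters used are short parts of longer sites. Motifs were searched on both strands and may overlap each other. The AT-rich homeodomain motif TAATTA was less frequent at summits (6.47%) than 2 kb away (9.58%). It was in 9.58% of strong WT distal peaks, in 8.02% of those with a mutant peak and in 4.20% of those without. Sox motifs (CCATTGT) were at 3.22% at summits and 3.93% 2 kb away, and AP-1 motifs (TGANTCA) at 7.07% and 6.57%. The moved windows were not matched for GC, which was 48.0% at WT summits and 38.6% in all distal space.

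Over the whole WT list, the E-box and NFI shares of distal peaks were close to those of other peaks away from promoters. The E-box was in 26.6% of nearer intergenic WT peaks, 28.04% of gene body peaks, 15.6% of TSS peaks and 25.2% of all autosomal peaks. NFI motifs were in 22.96%, 23.8%, 11.4% and 21.7%. Both became more frequent with peak strength. From the weakest to the strongest decile of the WT list the E-box went from 15.8% (14.5 to 17.2) to 43.0% (40.1 to 46.0) of distal peaks, and NFI motifs from 16.9% (15.5 to 18.3) to 35.5% (32.7 to 38.4). In the strongest decile, nearer intergenic peaks held the E-box in 42.3% and the NFI motif in 30.1%. At equal strength the short NFI motif TTGGCA was thus more frequent in distal peaks of the stronger deciles. In decile 6 it was in 30.4% (28.1 to 32.8) against 22.7%, and in decile 9 in 34.1% (31.5 to 36.8) against 25.8%. In the weakest decile it was 16.9% against 18.2%. The Zic motif was in 10.2% of distal, 12.6% of nearer intergenic and 13.2% of gene body WT peaks.

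The CTCF consensus was rarer in distal peaks than in other peaks away from promoters. CTCF is the zinc finger protein that anchors chromatin loops and insulates domains. It was matched in 0.701% of WT distal windows (125 peaks, 0.589 to 0.835), 2.67% (2.53 to 2.83) of nearer intergenic, 1.92% of gene body and 0.843% of TSS windows. Windows 2 kb away held it in 0.0168%. The mutant and het lists gave 0.678% and 0.941% for distal peaks and 2.56% and 2.97% for nearer intergenic ones. Among strong WT distal peaks the share was 1.70%. In each of the 10 deciles of the WT list distal peaks held the CTCF consensus less often than nearer intergenic peaks, for example 1.99% (1.34 to 2.94) against 4.98% in decile 8. In decile 10 it was 1.38% (0.840 to 2.27) against 1.95%.

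**Figure D2:**
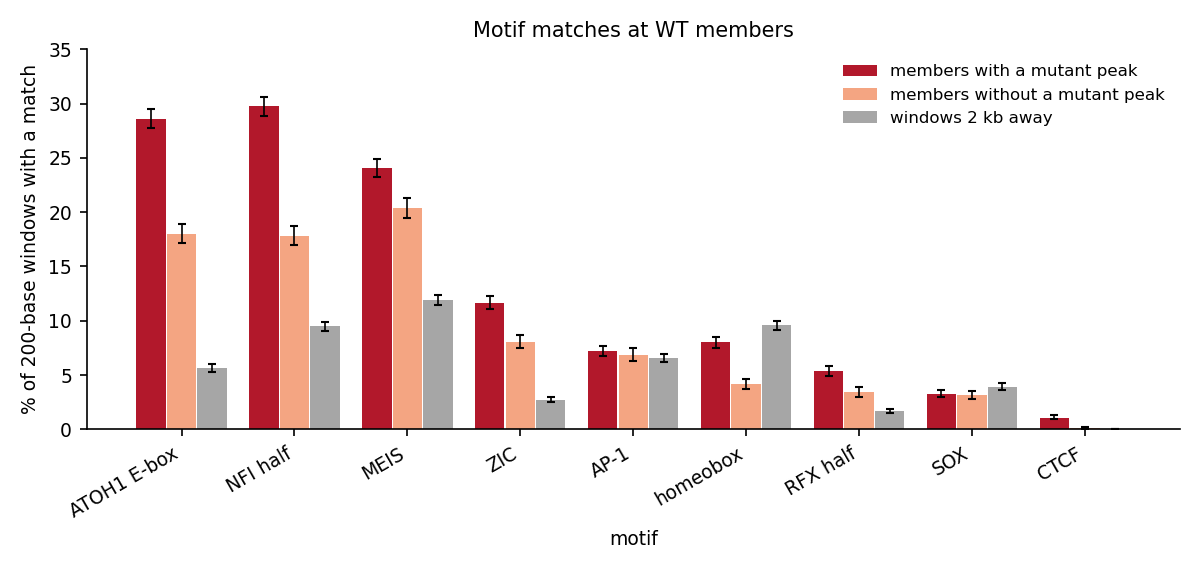
Percent of 200-base windows with a motif match (y axis) at WT distal summits with a mutant peak, without one, and in windows 2 kb away, with Wilson 95% intervals. The E-box and the NFI motif were in 28.6% and 29.7% of distal peaks that had a mutant peak, in 18.01% and 17.8% of those that had none, and in 5.66% and 9.49% of the moved windows.

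Distal peaks were shared between the WT and mutant lists less often than other peaks. Sharing here means at least 1 bp of overlap with any peak in the second list. No mutant peak overlapped 40.5% of WT distal peaks (7219, 39.8 to 41.2), against 23% of all autosomal WT peaks, 23.4% of nearer intergenic, 22.8% of gene body and 9.71% of TSS peaks. Conversely, no WT peak overlapped 43.8% of mutant distal peaks (8392, 43.1 to 44.5), against 30.8% of all mutant peaks, 32.5% of nearer intergenic, 32.1% of gene body and 14.5% of TSS peaks. The distal share was higher than the nearer intergenic share on 19 of 19 autosomes in both directions. In the WT list it ranged from 25.2% on chromosome 7 to 48.4% on chromosome 14, and in the mutant list from 37.2% on chromosome 7 to 50.1% on chromosome 17.

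Distal peaks also had the highest shares without a partner in the comparisons with het. A het peak was missing at 54.4% of WT distal peaks (53.7 to 55.2) and 55.8% of mutant ones (55.1 to 56.5), against 37% of all WT and 41.4% of all mutant peaks. Of the het distal peaks, 22.9% (22.1 to 23.7) had no WT peak and 21.2% (20.4 to 22.0) no mutant peak, against 13.3% and 10.7% of all het peaks. At WT distal peaks without a mutant peak, het had a peak in 9.57% (691 of 7219), and at mutant distal peaks without a WT peak in 10.7% (900 of 8392), against 13.2% and 14.8% at such nearer intergenic peaks. At WT distal peaks with a mutant peak it had one in 70.0% (7428 of 10604), against 76.1% in nearer intergenic space.

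When distal peaks of the 3 lists were joined within 300 bp, 25559 regions resulted, of which 28.4% (7271) were in all lists, 22.8% (5817) in WT alone, 25.9% (6626) in mutant alone, 12.4% in WT and mutant, 5.43% in het alone, 2.80% in het and mutant and 2.21% in WT and het. Among 55392 nearer intergenic regions 43.3% were in all lists, 13.4% in WT alone and 21.2% in mutant alone.

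Peaks of 1 list were weak peaks. Median −log10 q of WT distal peaks was 2.97 without and 7.80 with a mutant peak, and median width 124 bp and 243 bp. In the mutant list the medians were 3.45 and 8.21, and 119 bp and 233 bp. Of strong WT distal peaks only 1.24% (54 of 4354, 0.952 to 1.61) had no mutant peak, against 0.521% of nearer intergenic ones. Of strong mutant distal peaks 1.37% (65 of 4743, 1.08 to 1.74) had no WT peak, against 1.49%. In the strongest decile of the list 0 of 1085 WT distal peaks (interval up to 0.353%) and 0 of 1052 mutant ones (up to 0.364%) lacked a partner.

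Set against nearer intergenic peaks of equal strength, the gap was smaller, more so in the mutant list. Within deciles of −log10 q, WT distal peaks lacked a mutant peak more often than nearer intergenic WT peaks in 9 of 10 deciles, and in 7 beyond both intervals. In the fourth decile the shares were 47.8% (45.6 to 50.03) and 32.3% (31.0 to 33.7). Nearer intergenic WT peaks taken at the decile mix of the distal ones lacked a mutant peak in 30.5%, against 40.5% in distal peaks. For mutant peaks the gap within deciles was smaller, 53.3% (51.2 to 55.4) against 49.4% (48.1 to 50.8) in the fourth decile, and at the same mix 40.5% of nearer intergenic mutant peaks lacked a WT peak, against 43.8%. From the sixth to the tenth decile, mutant distal and nearer intergenic peaks had overlapping intervals.

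**Figure D3:**
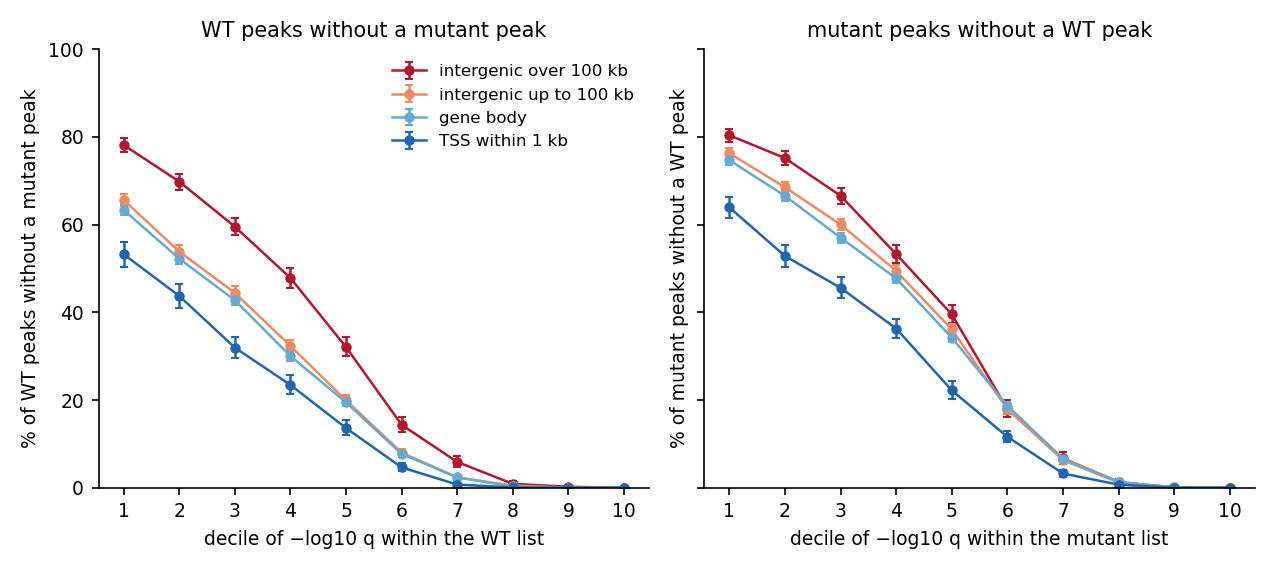
Percent of WT peaks without a mutant peak and of mutant peaks without a WT peak (y axes) by decile of −log10 q within the list (x axes, 10 is the strongest), for 4 locations with Wilson 95% intervals. In the fourth decile 47.8% of distal and 32.3% of nearer intergenic WT peaks had no mutant peak, and in the tenth decile 0 of 1085 distal WT peaks.

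Which list held more unshared distal peaks depended on the length of the lists. The mutant list was longer, and when all lists were cut by −log10 q to 104396 peaks, 31.6% of WT distal peaks had no mutant peak and 24.0% of mutant distal peaks no WT peak, the opposite order to the whole lists. With both lists at −log10 q of 5 or more the shares were 22.7% and 29.8%. No share over the other locations is given for these cuts, so the change of order cannot be read as particular to distal peaks.

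Repeats moved with these shares. Soft-masked bases made up 33.1% of the summit windows of WT distal peaks without a mutant peak and 14.1% of those with one, and the summit bases occurred more than once in the genome in 9.28% (8.63 to 9.97) and 3.13% (2.82 to 3.48). In the mutant list the values were 29.4% and 14.1%, and 8.27% and 3.01%. Tag size also differed between WT and mutant, and its part was not tested. In windows without any soft-masked base distal peaks kept the highest share of the 4 locations. There 29.2% of 6936 WT distal peaks (28.1 to 30.2) had no mutant peak, against 19.1% of nearer intergenic ones, and 34.4% of 7542 mutant distal peaks (33.3 to 35.5) had no WT peak, against 28.1%. By GC content the WT distal share was 38.9% (36.3 to 41.6) at GC up to 40% and 43.5% (37.4 to 49.7) at GC over 60%, with overlapping intervals. The nearer intergenic share was 24.6% and 13.5% in the same classes. Only 1 WT and 1 mutant distal peak matched the mitochondrial sequence, and both were shared.

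The share of peaks found in 1 list became larger with distance. WT peaks without a mutant peak made up 34.1% (32.8 to 35.4) at 100 to 150 kb, 37.8% (36.4 to 39.3) at 200 to 300 kb, 52.6% (50.3 to 54.9) at 500 to 1000 kb and 64.9% (55.6 to 73.1) of the 111 peaks beyond 1000 kb. Nearer intergenic peaks at the same decile mixes would give 28.1%, 29.4%, 35.3% and 40.6%. The mutant shares at these distances were 40.8%, 42.5%, 51.4% and 59.2%, with 37.9%, 40.4%, 46.2% and 49.1% at the same mixes. Soft-masked bases increased along with distance, from 17.6% at 100 to 150 kb to 30.3% at 500 to 1000 kb in WT. The excess of mutant over WT peaks also shrank, from 1.13 mutant peaks per WT peak at 100 to 150 kb to 1.02 at 300 to 500 kb and 0.992 at 500 to 1000 kb, against 1.16 at 1 to 10 kb.

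**Figure D4:**
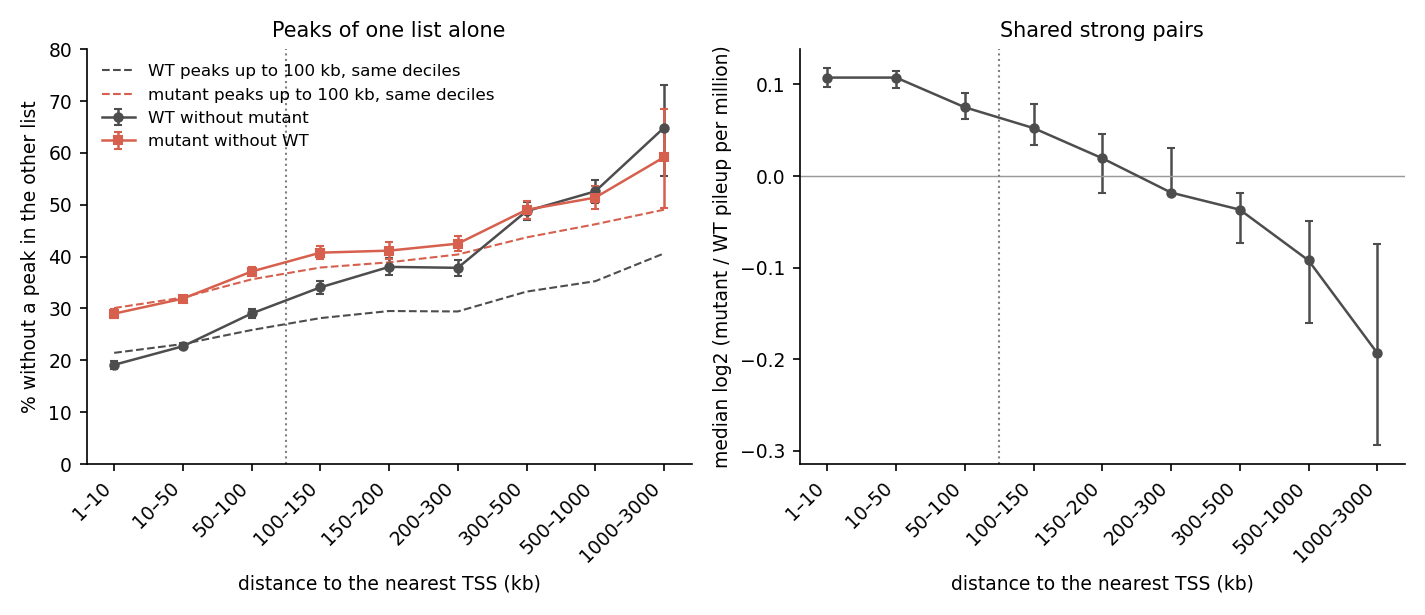
Left, percent of WT and mutant intergenic peaks without a peak in the other list (y axis) by distance from the nearest TSS in kb (x axis), with Wilson 95% intervals, and, dashed, the share of nearer intergenic peaks at the same mix of deciles. Right, median log2 ratio of mutant to WT pileup scaled to tags in mutual strong pairs, with nominal 95% intervals of the median. These cover less than 95% where pairs are few, as beyond 1000 kb. The dotted line marks 100 kb. WT shares went from 34.1% at 100 to 150 kb to 64.9% beyond 1000 kb, and the median log2 ratio from 0.052 to −0.19. The last median rests on only 15 pairs and was −0.11 by fold enrichment.

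The strongest distal peaks found in WT or mutant alone had pileups of 20 to 28. In WT, with no mutant or het peak within 300 bp, the first was chr14:90323650-90323831, with a pileup of 28 and −log10 q of 21.7, in a stretch 1852 kb from the TSS of the protocadherin gene Pcdh20. The second, chr19:49533677-49533848, had 28 and 18.3 and lay 719 kb from Sorcs1, which encodes a sorting receptor. The third, 689 kb from Nxph1, which encodes a secreted ligand of neurexins, had a pileup of 22, the fourth, 545 kb from Steap1, had 21, and the fifth, 1047 kb from Epha7, an ephrin receptor, had 20. WT held 5896 such distal peaks, 33.1% of its distal peaks (32.4 to 33.8), against 17.4% of nearer intergenic and 17% of all WT peaks.

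In the mutant list 6748 distal peaks, 35.2% (34.5 to 35.9), had no WT or het peak within 300 bp, against 24.2% of nearer intergenic and 22.5% of all mutant peaks. The strongest was chr8:33177621-33177990, 153 kb from the helicase gene Wrn, with a pileup of 27 and −log10 q of 21.1. The second, chr15:49555943-49556083, 764 kb from Csmd3, had 25 and 17.6. The next 3, nearest to Csmd1, Daam1 and Arhgap24, had 22, 21 and 22. The tallest of these peaks were thus 28 in WT and 27 in mutant. In het, 1397 distal peaks stood alone, 13.7% (13.04 to 14.4) against 6.85% of nearer intergenic and 6.3% of all het peaks. The strongest was chr8:55539343-55539731, 367 kb from Adam29, with a pileup of 36 and −log10 q of 23.6. The second het peak, nearest to Ndufa4, had 19 and summit bases with 115 copies in the genome, and the other 3, nearest to Plscr5, Tmtc2 and Gm43517, had 18, 17 and 17.

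Where distal peaks were shared, WT and mutant pileups were close. Over 10604 pairs of a WT distal peak and its strongest overlapping mutant peak, the median log2 ratio of mutant to WT pileup scaled to tags was −0.018, and the SD over pairs was 0.41. A value of −0.018 is that of a pair with equal pileups, since the mutant list had more tags. Among the 5398 pairs with −log10 q of 10 or more in either list it was 0.018 (95% interval of the median −0.018 to 0.034), against 0.11 (0.10 to 0.11) in nearer intergenic pairs, 0.10 in gene body pairs, 0.063 in TSS pairs and 0.081 in all pairs. These intervals cover the spread over pairs only. By fold enrichment, the ratio of pileup to local background, the medians were 0.044 for distal and 0.11 for nearer intergenic pairs.

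By pileup the median fell with distance. In mutual strong pairs, in which each peak was the strongest overlapping peak of the other, the median log2 ratio was 0.11 (0.097 to 0.12) at 1 to 10 kb, 0.052 (0.034 to 0.078) at 100 to 150 kb, −0.018 (−0.018 to 0.031) at 200 to 300 kb, −0.037 (−0.073 to −0.018) at 300 to 500 kb and −0.092 (−0.16 to −0.049) at 500 to 1000 kb, from 381 pairs in the last. By fold enrichment the sign differed at 200 to 500 kb: the medians of the same pairs were 0.11 at 1 to 10 kb, 0.056 at 100 to 150 kb, 0.044 at 200 to 300 kb, 0.016 at 300 to 500 kb and −0.023 at 500 to 1000 kb. By pileup scaled to tags, mutant was below WT in 37.3% of pairs at 1 to 10 kb and in 58.5% at 500 to 1000 kb. Pairs with equal pileups, at a log2 ratio of −0.018, were counted as below WT and were not taken out. Within GC of 45 to 50% the median over strong pairs was 0.012 in distal and 0.13 in nearer intergenic peaks, and within 50 to 55% −0.018 and 0.089. The distal median was the lower one in each of the 6 GC classes.

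Differences of 2-fold were rare. Among all strong pairs 0.605% were at least 2-fold lower in mutant and 2.08% at least 2-fold higher. In distal pairs 1.93% (104, 1.59 to 2.33) were lower and 2.19% (118, 1.83 to 2.61) higher, against 0.643% and 2.07% in nearer intergenic pairs. The higher share depended on how peaks were paired, since a WT shoulder called as a peak of its own was set against a broader mutant peak. Mutual pairs, a pairing chosen after the data were seen, gave 1.95% lower (104 of 5339, 1.61 to 2.35) and 1.63% higher (87, 1.32 to 2.01) in distal peaks, 0.653% and 1.28% in nearer intergenic peaks, and 0.617% and 1.12% over all locations. These hold the same number of lower pairs, so they bear on the higher share only. With each mutant distal peak set against its strongest WT peak, 3.56% (196 of 5502, 3.10 to 4.09) were lower and 1.58% (87) higher, against 2.83% and 1.07% over all locations and 4.11% lower in TSS pairs. By fold enrichment 0.556% (30, 0.390 to 0.792) of the 5398 distal pairs were lower and 1.15% (62) higher, against 0.186% and 1.46% over all locations. The size of both shares, and which was larger, thus depended on the pairing and the measure.

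The 5 distal pairs with the lowest ratios were all mutual pairs, and all also had a het peak. They were picked for their ratio, which is a description. The lowest, chr6:19945688-19946031 in the Ankrd7 to Kcnd2 desert, had pileups of 28 in WT, 17 in het and 9 in mutant, a ratio of 0.317 (0.132 to 0.692). The second, chr2:100318456-100318639, 1258 kb from B230118H07Rik, had 31, 20 and 10. The third, chr17:61288683-61288882, 1592 kb from Efna5, an ephrin ligand, had 39, 23 and 13. The fourth, 183 kb from Tmem196 on chromosome 12, had 23, 21 and 8. The fifth, chr19:49532777-49533304, had 31, 30 and 11, and lay next to the chr19 peak that was found in WT alone. Over the 5 pairs the WT pileups were 23 to 39 and the mutant ones 8 to 13.

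Of the 5 pairs with the highest ratios, 4 came from split WT peaks. The first, on chr15, set a WT shoulder with a pileup of 19 against a mutant peak of 77, but the WT list held a second peak of 71 under the same mutant peak, which gives a ratio of 1.07. The fifth, 156 kb from Onecut1, likewise went from 3.31 to 1.03, the second, 708 kb from Mms22l, from 3.62 to 1.48, and the fourth, 260 kb from Bbs9, from 3.40 to 2.35. The third, chr10:12174171-12174653, was a mutual pair. It lay 229 kb from Utrn, which encodes the dystrophin homologue utrophin, and had pileups of 16 in WT, 48 in het and 58 in mutant, a ratio of 3.58 (2.03 to 6.67). Of the other mutual pairs, named after their values were seen, the next highest lay 633 kb from the corepressor gene Tle4, with 12 in WT and 40 in mutant, and another 848 kb from Epha7, with 8 and 24.

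The WT distal peaks farthest from any TSS, among strong ones, all lay in 1 desert on chromosome 5 between Igfbp7 and Adgrl3. The farthest was chr5:79131479-79131916, 1646 kb from the nearest TSS, with pileups of 21 in WT, 19 in mutant and 17 in het. The second, chr5:78993252-78993610 at 1508 kb, was much taller, with 67, 58 and 92. The others had 23 and 19, 26 and 16, and 54 and 57 in WT and mutant. Mutant was lower than WT scaled to tags in 4 of the 5, and each interval of the ratio included 1. The 5 were picked with a limit on WT −log10 q, which favours ratios below 1.

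That desert, chr5:77494362-81020137, was also the one with the most distal peaks. It runs over 3.53 Mb between Igfbp7, which encodes an insulin-like growth factor binding protein, and Adgrl3, a latrophilin that acts as a synaptic adhesion receptor. It held 158 WT, 139 mutant and 67 het distal peaks. Deserts were taken between neighbouring protein-coding or long non-coding gene bodies, but are named by the flanking protein-coding genes. A desert can thus be shorter than the stretch between the genes in its name. The Cdh8 to Cdh11 desert, for example, was chr8:100726356-102632094, whereas the gene body of Cdh8 ended at 99416471. The 1397 deserts with a distal peak included 154 with at least 30 WT peaks, and the 10 richest held 5.27% (940) of WT distal peaks. Next came Slitrk1 to Slitrk6 with 97 WT and 96 mutant peaks, Cdh8 to Cdh11 with 96 and 98, Cadm2 to Speer2 with 93 and 76, and Sel1l to Flrt2 with 86 and 100. The Slitrk, Cdh, Cadm and Flrt genes encode neuronal adhesion proteins.

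Then came Ptprd to Tyrp1 with 84 WT and 71 mutant peaks, Manea to Epha7 with 83 and 76, Ankrd7 to Kcnd2 with 80 and 53, and Tenm2 to Mat2b with 77 and 76. Ptprd and Tenm2 encode synaptic adhesion proteins and Kcnd2 a voltage-gated potassium channel. In 7 of these 9 deserts the mutant list had fewer distal peaks than the WT list, but they were picked by their WT count. Over the 154 deserts with at least 30 WT peaks, WT had more in 63, mutant in 81, and the lists were equal in 10. WT peaks without a mutant peak were 38.4% (28.8 to 48.9) in the Sel1l to Flrt2 desert and 61.3% in both the Cadm2 to Speer2 (51.1 to 70.6) and the Ankrd7 to Kcnd2 (50.3 to 71.2) deserts. In mutant, 45 of 100, 38 of 76 and 22 of 53 peaks there lacked a WT peak.

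**Figure D5:**
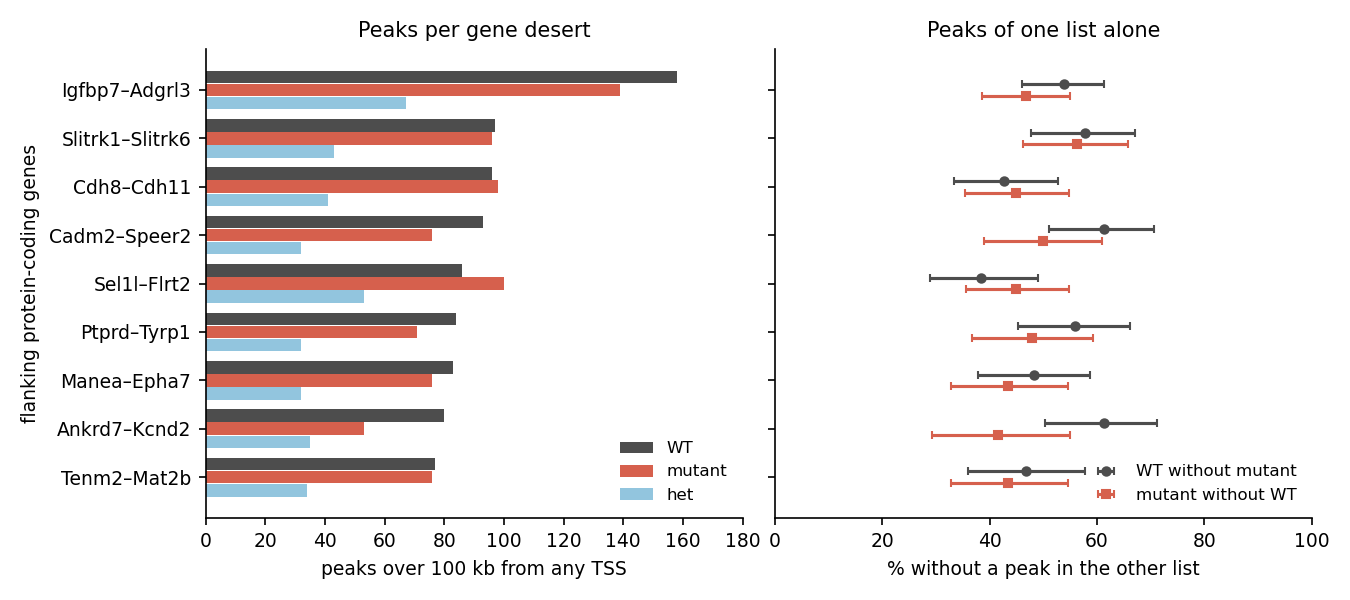
Left, number of distal peaks per list (bars) in 9 of the 10 gene deserts with the most WT distal peaks, named by their flanking protein-coding genes. Right, percent of WT peaks without a mutant peak and of mutant peaks without a WT peak, with Wilson 95% intervals. WT held more distal peaks than mutant in 7 of the 9, the widest gap being 80 against 53 in the Ankrd7 to Kcnd2 desert.

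Unshared peaks were more frequent in longer deserts. The share of WT distal peaks without a mutant peak was 32.3% in deserts up to 0.5 Mb, 41.1% from 0.5 to 1 Mb, 46.9% from 1 to 1.5 Mb, 51.5% from 1.5 to 2 Mb and 54.4% in the 15 deserts over 2 Mb. Mutant shares went from 39.2% up to 51.5% in deserts of 1.5 to 2 Mb and were 48.7% above that. In number, deserts up to 0.5 Mb held 6175 WT and 6976 mutant distal peaks, and those over 2 Mb 761 and 698.

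Distal peaks were assigned to the protein-coding gene with the nearest TSS, and gene lists were counted by these peaks. The genes named from each list are among the 4 with the most WT peaks, and the nearest gene need not be the one acted on. Desert length and distance were not held equal between lists. In all deserts of 1.5 to 2 Mb, 51.5% of WT distal peaks had no mutant peak. Type II cadherins, the homophilic adhesion molecules that sort neurons, were nearest to 603 WT, 589 mutant and 303 het distal peaks at 11 of 13 genes. Of the WT peaks 47.4% (43.5 to 51.4) had no mutant peak, against 40.5% of all WT distal peaks. The most were at Cdh8 (116 WT and 122 mutant), Cdh9 (93 and 84), Cdh11 (90 and 95) and Cdh6 (65 and 63).

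Non-clustered protocadherins, which are also neuronal adhesion proteins, had 467 WT and 423 mutant distal peaks at 7 of 10 autosomal genes in WT. No mutant peak was found at 60.2% (55.7 to 64.5) of them. Pcdh20 had 125 WT and 123 mutant peaks, the most WT peaks of any gene, Pcdh9 112 and 98, Pcdh17 111 and 101, and Pcdh7 76 and 63. Synaptic leucine-rich repeat adhesion genes had 442 WT and 436 mutant peaks at 9 of 23 genes, with 54.98% (50.3 to 59.6) of WT peaks unshared. Flrt2 had 113 and 131, Slitrk1 104 and 102, Slitrk6 80 and 79, and Lrfn5 54 and 28. Lrfn5, which encodes a synaptic adhesion-like molecule, had 38 of its 54 WT peaks without a mutant peak and 12 of its 28 mutant peaks without a WT peak.

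Transcription factor genes had fewer distal peaks. The granule lineage list had 188 WT and 197 mutant distal peaks at 21 of 39 genes, and 41.0% (34.2 to 48.1) of the WT ones had no mutant peak. Zeb2, a zinc finger repressor, had 53 WT and 48 mutant peaks, Mef2c, an activity-dependent factor, 32 and 26, and Gli3, a Hedgehog pathway factor, 11 and 11. Of the 32 peaks near Mef2c 25 had no mutant peak and none was strong, whereas 1 of 11 near Gli3 had none. Factors of other cerebellar lineages had 117 WT and 157 mutant distal peaks, at 9 of 36 genes in WT, with 23.9% (17.1 to 32.4) of WT and 44.6% (37.0 to 52.4) of mutant peaks unshared. At Sox9, a glial factor, there were 39 WT and 54 mutant peaks, at Sox2 19 and 22, at Pou3f2 14 and 24 and at Tfap2b 12 and 13. The interval of this list lay below those of the 3 adhesion lists for WT peaks but overlapped them for mutant peaks, where the unshared shares were 45.8% (41.9 to 49.9) for type II cadherins, 55.8% (51.03 to 60.5) for protocadherins and 53.7% (48.98 to 58.3) for the leucine-rich repeat genes, against 43.8% of all mutant distal peaks.

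Median log2 ratios of mutant to WT pileup in strong distal pairs were 0.17 for the granule lineage list (55 pairs), 0.24 for the other transcription factors (45), −0.15 for type II cadherins (146), −0.18 for protocadherins (72) and −0.27 for leucine-rich repeat adhesion genes (82), against 0.018 for all distal pairs. Among the genes named from the lists the lowest were Kcnd2 (−0.46, 9 pairs), Slitrk1 (−0.38, 11 pairs) and Flrt2 (−0.37, 27 pairs). At Sox9 the median was 0.25 over 19 pairs, at Zeb2 0.097 over 13, at Sox2 0.046 over 7 and at Gli3 0.54 over 4. At Tfap2b it was 0.57 over 3 pairs, at Pou3f2 −0.25 over 3 and at Mef2c 0.77 from 1. All of these medians are by pileup alone and are given without intervals.

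Genes that the study named as activated by Chd7 were looked at in the same way. They were chosen by lower RNA in Chd7 mutant GNPs of the same study, so they are not independent of the genotype. Of 151 names 121 were matched to autosomal protein-coding genes, and 49 of these were nearest to 857 WT distal peaks, 4.81% of all, and 50 to 845 mutant ones. Among the WT peaks those lacking a mutant one were 47.1% (43.8 to 50.5), against 40.5% of all WT distal peaks. Desert length was not held equal here either. Among mutant peaks those lacking a WT one were 46.9% (43.5 to 50.2), an interval that includes the 43.8% of all mutant distal peaks. Epha7 had 89 WT and 92 mutant distal peaks, Nova1, a neuronal splicing factor, 64 and 57, Dach1, a nuclear cofactor, 59 and 64, and Kcnd2 56 and 37. The median log2 ratio over 217 strong pairs was −0.096, against 0.018 for all strong distal pairs.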

How the data were processed

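ATAC-seq peak lists of pooled libraries (WT, het, mutant) were deposited by the authors. Pileup is the signal over the summit, fold enrichment the ratio to local background, and q values are deposited as −log10 q. Per the file headers, MACS2 2.1.0.20150731 called peaks at q of 0.05 without a control, on STAR alignments for WT and mutant and with tags shifted by -100 bp and extended to 200 bp for het, whereas the methods describe a single scheme. The submitters' processing notes also list Trim Galore 0.4.1, STAR 2.5.0b, Bowtie 1.0.0 and Picard 1.139. Coordinates are mm10 (GRCm38).

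Summits were classed against GENCODE M21. Sharing needed 1 bp of overlap, regions were joined within 300 bp, and pileups were scaled to tags after filtering, without a pseudocount. Motifs were searched in 200 bases at the summit, and copies of the central 32 bases were counted. Mitochondrial matches used blastn 2.17.0 at an e-value of 1e-10. Python 3.11.15, pandas 2.3.3, scipy 1.17.1 and numpy 2.4.6 were used, and the steps were tested on simulated data. Named were the 10 strongest regions, the 5 strongest peaks of each list alone, the 5 pairs with the lowest and the 5 with the highest ratio, the 5 farthest strong peaks, the 10 richest deserts and 4 genes a list, of which 1 desert and 1 gene are not reported here. Members, lists and rules were chosen with earlier results of these data known. Unmasked windows, mutual pairs and other pairings for 2-fold shares were added after seeing the data.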

Additional observations from a re-analysis of the deposited data

How the results depend on the processing

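No paired analysis was possible because each list pools the libraries of its genotype, and leaving out each replicate could not be run either. Shares are given in the order WT without mutant, mutant without WT, WT without het and mutant without het, with 40.5%, 43.8%, 54.4% and 55.8% as reported. They were 53.0%, 56.3%, 64.8% and 67.1% with 50% reciprocal overlap, and 36.7%, 39.5%, 51.6% and 52.8% when peaks within 300 bp counted as shared. At −log10 q of 5 or more in both lists they were 22.7%, 29.8%, 33.0% and 37.0%, and with lists of equal length 31.6%, 24.0%, 31.8% and 25.9%. Distal peaks over 50 kb gave 36.3%, 41.3%, 50.3% and 52.6%, those over 200 kb 44.97%, 46.6%, 59.1% and 59.6%, and protein-coding genes alone 35.4%, 40.3%, 49.0% and 51.4%. Summits found once in the genome gave 38.9%, 42.4%, 52.4% and 54.0%. Without soft-masked bases, an alternative added after seeing the data, the first pair was 29.2% and 34.4%. Genes of all types left the 4 shares within their intervals.

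The shares of peaks that were distal, 11.9% in WT, 9.77% in het and 11.2% in mutant, were 18.8%, 16.3% and 18.2% over 50 kb, 6.20%, 4.72% and 5.69% over 200 kb, 4.89%, 4.03% and 4.63% with genes of all types, 22.5%, 19.9% and 21.8% with protein-coding genes alone, and 9.06%, 8.11% and 8.74% at −log10 q of 5 or more. The median log2 ratio of shared peaks, −0.018, was 0.043 by fold enrichment and 0.047 over 50 kb, and stayed within its interval in the 5 other alternatives. Strong distal pairs at least 2-fold lower in mutant, 1.93%, were 0.556% by fold enrichment and 3.56% with each mutant peak set against its strongest WT peak, and those 2-fold higher, 2.19%, were 1.15% and 1.58%, and 1.63% in mutual pairs, all added after seeing the data. The causes of these shifts were not tested. Pooling leaves no measure of variation between libraries, and weak peaks near the q limit make up most unshared peaks.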

Other observations

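Deserts at both ends of the order by unshared share were picked after their values were seen, with no test. Over the 154 deserts with at least 30 WT distal peaks, the part of the WT peaks that lacked a mutant one had a median of 46.7% and went from 5.26% to 82.9%. It was lowest between Triqk and Runx1t1, which encodes a transcriptional corepressor, where 2 of 38 WT peaks had no mutant peak. Next came the desert between Chd7 itself and Clvs1, with 5 of 35 (14.3%), 38 mutant and 27 het peaks.

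The highest shares were 82.9% between Cox7c and Edil3 (34 of 41 WT peaks) and 76.3% between Tenm3, a teneurin adhesion protein gene, and Aga (29 of 38), where mutant had 16 distal peaks and het 6. Each of these 2 deserts held 2 strong WT peaks, against 14 in each of the deserts with the lowest shares named above.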
